A study of Mus musculus with 4 samples.

Results

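Ppara, the gene of the nuclear receptor PPARα, and 8 of its classic liver targets (Cyp4a10, Cyp4a14, Pdk4, Ehhadh, Acaa1b, Acot1, Vnn1 and Angptl4) were read in the livers of mice with and without ADAR2. The genes were taken by name from the deposited table, and all 9 of the 9 names were found among its 25655 genes. Each was measured by RNA-seq in 4 liver libraries, 2 labelled HFD-WT and 2 labelled HFD-KO. HFD-WT stands for ADAR2 +/+ / GluR-B R/R mice and HFD-KO for ADAR2 -/- / GluR-B R/R mice on a B6129S background, bred from heterozygous parents. Both groups thus carried the GluR-B R/R allele, the pre-edited form of the glutamate receptor gene that lets mice without ADAR2 live past the first weeks. Both were fed a high-fat diet (HFD) for 12 weeks from 5 to 17 weeks of age, and no library from mice on a normal diet was analysed here. ADAR2 converts adenosine to inosine in RNA and was missing from the whole body of the HFD-KO mice, not from the liver alone. The paper turned to male mice for the work that includes the sequencing, while the sample labels give no sex. The paper's caption for its gene set enrichment of HFD-WT and HFD-KO livers gives more mice per group than the 2 libraries per group here. Whether a library holds RNA from 1 mouse or from a pool is not given in the sources used here, so the p-values measure only the spread between these libraries.

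PPARα is a receptor for fatty acids and their derivatives. It binds DNA as a pair with the retinoid X receptor, and in hepatocytes it turns on genes for taking up, activating and oxidizing fatty acids, most strongly in fasting and after fibrate drugs. Its mouse liver targets act in several compartments: omega-hydroxylases in the endoplasmic reticulum, beta-oxidation enzymes in peroxisomes and mitochondria, acyl-CoA thioesterases, and secreted regulators of lipid handling. Pdk4 and Angptl4 also respond to glucocorticoids, and Pdk4 to FOXO1, so that their transcripts are not read as products of PPARα alone.

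The libraries held between 24480798 and 28691330 counted reads, and 3 reads, the smallest number taken as a signal, came to between 0.104 and 0.126 CPM, the number of reads scaled to a common library total. This floor covers counting error only. Adarb1, which encodes ADAR2, had 454 and 545 reads in the HFD-WT libraries and 164 and 228 reads in the HFD-KO libraries. Its log2 fold change was -1.17 (unadjusted p = 0.000589, adjusted p = 0.159 by edgeR). Both HFD-KO libraries were below both HFD-WT libraries, as in 20.3% of all genes tested. Reads per gene do not show which exons they came from. The hepatocyte markers had between 1642 and 66100 CPM in every library. Of the markers of other tissues that use PPARs, 4 of the 6 adipocyte genes (Adipoq, Plin1, Lep and Retn) had at most 0.152 CPM. The other 2 were Cfd, with 4.56 and 2.04 CPM in HFD-WT and 5.01 and 7.58 CPM in HFD-KO (log2 fold change 0.92, unadjusted p = 0.0386, adjusted p = 0.518 by edgeR), and Cidea, a droplet protein also on the PPARα pathway list, with 30.7 to 55.8 CPM and overlapping groups. The adipocyte list summed to 45.2 to 60.4 CPM in HFD-WT and 36.0 to 62.2 CPM in HFD-KO. The 6 skeletal muscle genes had at most 0.691 CPM and the 4 kidney genes at most 0.0345 CPM. Of the 4 intestine genes, Lct and Sis had 0 reads and Vil1 at most 0.173 CPM, while Fabp2, also on the pathway list, had 118.9 to 127.2 CPM. Among the cells of the liver itself, 7 of 7 macrophage and Kupffer cell markers were lower in HFD-KO, 6 of them at an unadjusted p under 0.05 (4.73% of all genes tested were lower at that threshold), and their summed level was 349.9 to 441.3 CPM in HFD-WT and 262.2 to 280.2 CPM in HFD-KO. The sum of 6 stellate cell markers was 307 to 347.8 CPM in HFD-WT and 225.3 to 270 CPM in HFD-KO. Of the 6, 4 were lower, 3 of them at an unadjusted p under 0.05 by edgeR, and Des and Rgs5 were higher. Dcn made up the largest part of this sum. The sum of 7 endothelial markers was 218.7 to 241.1 CPM in HFD-WT and 212.4 to 232.8 CPM in HFD-KO. Of the 7, 3 were lower and 4 higher, and only Lyve1 passed that threshold (log2 fold change -0.70, adjusted p = 0.233 by edgeR). Red blood cell genes summed to 600.5 to 757.1 CPM in HFD-WT and to 810.7 and 1146 CPM in the HFD-KO libraries, the last in replicate 2. In such bulk samples, fewer cells of a type and less RNA per cell cannot be told apart, and the part of these differences in the results for the PPARα genes was not tested.

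All 9 genes were well above the floor and passed the filter on low counts. On the TPM scale, which divides by gene length and so allows genes to be compared, the peroxisomal thiolase Acaa1b was the most abundant with a mean level of 2440 TPM over the 4 libraries, rank 56 of all genes in the table. Cyp4a14 followed with 1623 TPM and Cyp4a10 with 1394 TPM, and although their ranges overlapped, Cyp4a14 was above Cyp4a10 in 4 of 4 libraries. Ehhadh had 384.9 TPM, Vnn1 134.9 TPM and Angptl4 95.4 TPM, each without overlap with its neighbours in this order. Ppara itself and Acot1 both had a mean level of 65.7 TPM, and neither was above the other in more than 2 of the 4 libraries. Pdk4 was the least abundant, at 13.02 TPM. The receptor was thus among the lower genes of the group, while 3 of its targets stood at 1196 TPM or more in every library.

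The genotypes were compared by edgeR's quasi-likelihood test over the 12967 genes tested, and fold changes are HFD-KO over HFD-WT. At an adjusted p under 0.05, 0 of the 9 genes passed, where 0.0771% of all genes tested did. At an unadjusted p under 0.05, 2 of the 9 passed, Acot1 and Cyp4a14, both higher in HFD-KO. Of all genes tested, 8.98% passed that threshold, 4.25% with higher and 4.73% with lower values in HFD-KO. In 3 of the 9 genes, Acot1, Cyp4a14 and Vnn1, both HFD-KO libraries lay above both HFD-WT libraries, against 20.5% of all genes tested. In 0 of the 9 both lay below, against 20.3% of all genes, and in the other 6 the groups overlapped. Groups without overlap in either direction made up 40.8% of all genes tested. The median log2 fold change of the 9 genes was 0.11, beside 0.0068 for all genes tested, and became -0.04 when HFD-KO replicate 2 was left out. With DESeq2's Wald test in place of edgeR, 2 of the 9 genes had an adjusted p under 0.05, and with no filter on low counts 1 did.

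**Figure D1:**
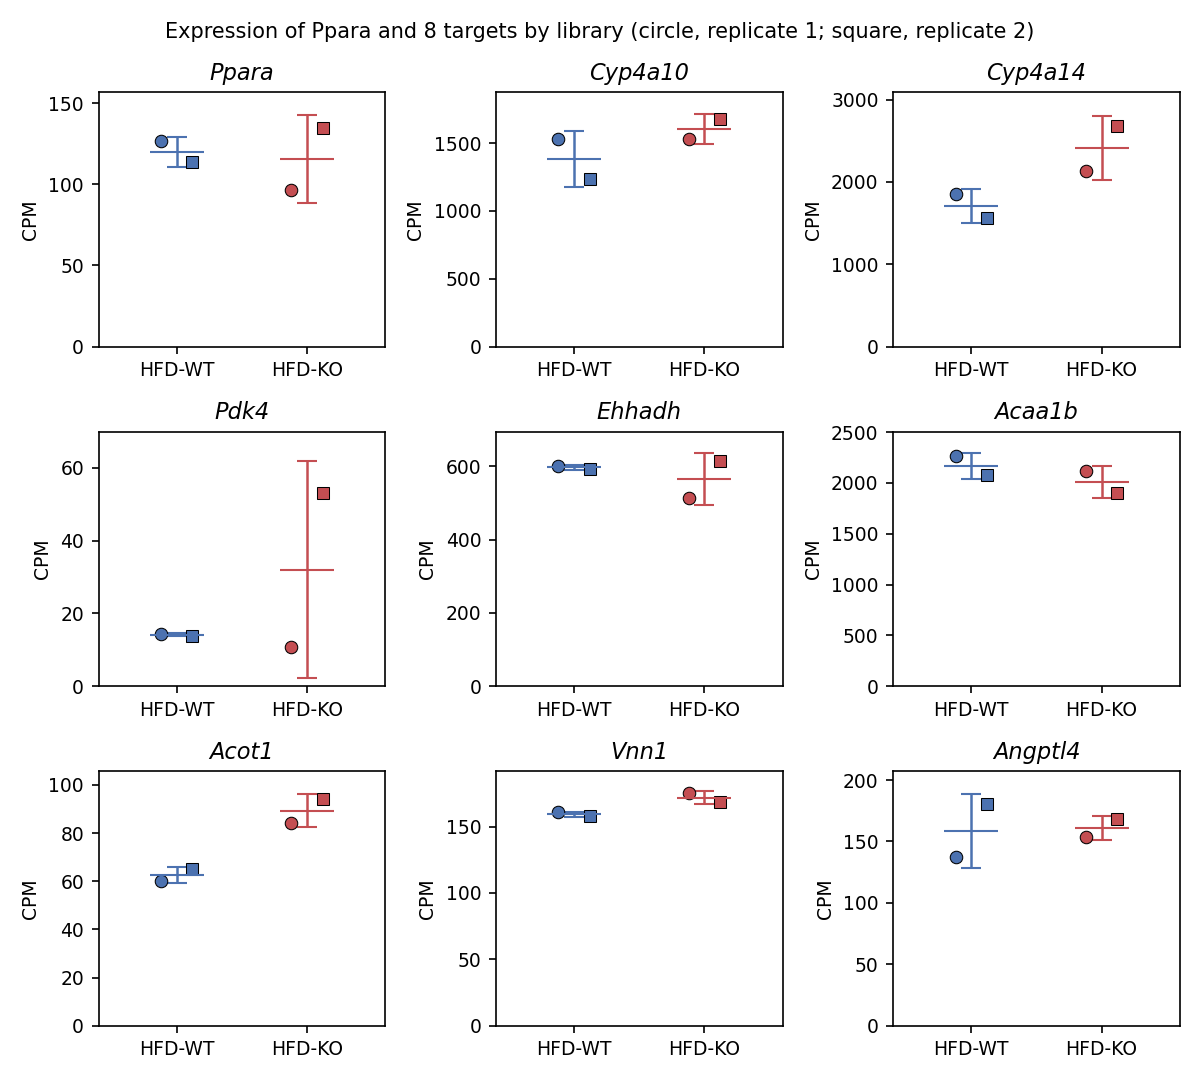
Expression in CPM (y axes, each starting at 0) of Ppara and 8 PPARα targets in HFD-WT (blue) and HFD-KO (red) livers; circles are replicate 1, squares replicate 2, horizontal bars the mean and whiskers the SD of the 2 libraries. The groups separate for Cyp4a14, Acot1 and Vnn1, and for Pdk4 a single HFD-KO library stands at 53.1 CPM while the other 3 lie between 10.9 and 14.4 CPM.

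Ppara lies on the plus strand of chromosome 15 from 85619184 to 85687020 on GRCm39 (ENSMUSG00000022383). Its level was 126.4 and 113.5 CPM in the HFD-WT libraries and 96.3 and 134.6 CPM in the HFD-KO libraries. The HFD-KO values thus enclosed both HFD-WT values, and the lowest and the highest level of the receptor were found in the same group. The mean level was 119.9 ± 9.14 CPM for HFD-WT and 115.5 ± 27.1 CPM for HFD-KO (SD, n = 2 each). With edgeR the log2 fold change was -0.06 (standard error 0.15, adjusted p = 0.942), and its 95% interval of -0.41 to 0.30 corresponds to a fold between 0.752 and 1.23. The direction turned with the library left out: the log2 fold change was 0.17 without HFD-KO replicate 1, -0.32 without HFD-KO replicate 2, and 0.02 without HFD-WT replicate 1.

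The other receptors of the family had fewer reads than Ppara in every library. Pparg, the adipogenic receptor, had 17.8 to 22.2 CPM, with a log2 fold change of -0.08 (adjusted p = 0.877 by edgeR). Ppard, a broadly expressed relative, had 6.87 to 7.90 CPM and a log2 fold change of 0.12 (adjusted p = 0.834 by edgeR). The partner receptors Rxra, Rxrb and Rxrg had log2 fold changes between -0.03 and 0.03. Of these partners Rxra was the most abundant, with 506.7 to 541.4 CPM.

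A search of the promoters was made for the members with a RefSeq entry, because a shared element near the start site would be one feature these genes could have in common. Of the 9 genes, 5 matched the RefSeq promoter table for GRCm38.p6: Acaa1b, Acot1, Ehhadh, Pdk4 and Ppara. Shown are the 250 bases before the start site of Ppara, of Acot1, which had the smallest p, and of Pdk4, which had the largest spread, each 5′ to 3′ on the strand of its gene. The windows are chr15:85735526-85735775 (plus strand), chr12:84009252-84009501 (plus strand) and chr6:5496279-5496528 (minus strand). Capitals mark a CCAAT box (CCAAT) or a GC box (GGGCGG) on either strand.
Ppara: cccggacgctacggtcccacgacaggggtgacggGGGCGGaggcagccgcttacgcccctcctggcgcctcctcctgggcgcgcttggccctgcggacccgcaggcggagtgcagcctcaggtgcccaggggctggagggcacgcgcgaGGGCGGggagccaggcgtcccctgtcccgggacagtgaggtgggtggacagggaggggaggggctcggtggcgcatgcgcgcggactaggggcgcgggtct
Acot1: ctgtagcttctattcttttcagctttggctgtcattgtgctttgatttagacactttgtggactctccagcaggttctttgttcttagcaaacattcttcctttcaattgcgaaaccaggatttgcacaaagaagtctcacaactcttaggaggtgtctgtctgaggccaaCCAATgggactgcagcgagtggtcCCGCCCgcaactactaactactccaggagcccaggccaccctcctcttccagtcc
Pdk4: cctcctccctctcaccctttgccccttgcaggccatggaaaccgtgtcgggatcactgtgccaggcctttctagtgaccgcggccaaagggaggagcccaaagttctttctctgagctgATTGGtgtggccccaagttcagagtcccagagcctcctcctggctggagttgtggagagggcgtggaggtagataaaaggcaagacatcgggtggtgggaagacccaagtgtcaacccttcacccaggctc
The CCAAT letters were found in 4 of the 5 promoters searched and in 37.4% of the 32851 promoters in the table, and the GC box letters in 3 of the 5 and in 35.7%. The core letters that nuclear receptors bind, AGGTCA, were found in 0 of the 5 and in 16.3% of all promoters. The direct repeat of these 6 letters spaced by 1 base, the element of PPARα with its partner, was in 0 of the 5 and in 0.0396% of all promoters, and the looser form, a repeat of AGGNCA spaced in the same way, was in 0 of the 5 and in 0.381%. Every promoter with the exact repeat also counts among those with the single core. The TATA box letters, TATAAA, were in 0 of the 5 and in 13.6% of all. All searches covered both strands of the promoter entries, which run 50 bases past the start site. A missing match says only that these letters are not in the window. The GC content of the printed windows was 76.4% for Ppara, 48.8% for Acot1 and 58.8% for Pdk4, with a median of 52.4% over all promoters.

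Cyp4a10 and Cyp4a14 encode omega-hydroxylases of the endoplasmic reticulum, which oxidize the far end of fatty acids and are among the most inducible PPARα targets in mice. They are neighbours on chromosome 4, Cyp4a10 from 115375461 to 115390846 on the plus strand (ENSMUSG00000066072) and Cyp4a14 from 115343397 to 115353339 on the minus strand (ENSMUSG00000028715). Cyp4a14 had 1854 and 1564 CPM in HFD-WT and 2134 and 2685 CPM in HFD-KO. Both HFD-KO libraries were thus above both HFD-WT libraries. The means were 1709 ± 205 CPM and 2410 ± 389.7 CPM (SD, n = 2 each), a fold of 1.41 with a 95% interval of 1.11 to 1.79. With edgeR the log2 fold change was 0.50 (standard error 0.15, unadjusted p = 0.0115, adjusted p = 0.400). Over the alternatives the adjusted p of Cyp4a14 ran from 1.73e-05 to 0.9998. It was 0.0473 with DESeq2's Wald test and 1.73e-05 without HFD-KO replicate 1, and in each of the other alternatives it was above 0.05, with a log2 fold change between 0.32 and 0.65 throughout.

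Cyp4a10 had 1530 and 1237 CPM in HFD-WT and 1527 and 1679 CPM in HFD-KO. One HFD-KO library was therefore level with an HFD-WT library. Its log2 fold change was 0.21 (standard error 0.13, adjusted p = 0.682 by edgeR), with a 95% interval from -0.09 to 0.52. It stayed between 0.07 and 0.37 over the alternatives, always above 0.

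Cyp4a10 has 2 close copies in the same cluster, Cyp4a31 and Cyp4a32, with coding sequences 96.6% and 97.2% identical to it, whereas Cyp4a10 and Cyp4a14 are 76.1% identical. Of the windows of 100 bases, the length of a read, along the Cyp4a10 transcript, 12.7% occur unchanged in Cyp4a31 or Cyp4a32, and 0% of those of Cyp4a14 occur in another gene. The pair of stretches below shows how alike Cyp4a10 and Cyp4a31 are. They cover coding bases 163 to 252 of both (exons 1 and 2; chr4:115518484-115519692 and chr4:115563879-115565072 on GRCm38, plus strand, with an intron between), and hold 3 differing bases, the median over such stretches, in capitals.
Cyp4a10: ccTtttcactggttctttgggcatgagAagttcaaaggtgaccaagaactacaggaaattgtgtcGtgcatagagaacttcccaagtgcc
Cyp4a31: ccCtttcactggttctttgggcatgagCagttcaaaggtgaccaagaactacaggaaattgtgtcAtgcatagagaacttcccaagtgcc
Cyp4a31 was much lower than Cyp4a10, with 12.6 and 17.3 CPM in HFD-WT and 16.5 and 31.5 CPM in HFD-KO. Its log2 fold change was 0.68 (unadjusted p = 0.0459, adjusted p = 0.543 by edgeR), and its groups overlapped. Cyp4a32 had 34.2 to 36.7 CPM and a log2 fold change of 0.03 (adjusted p = 0.931 by edgeR). When the reads of the 3 genes were summed, the log2 fold change was 0.21, the same as for Cyp4a10 alone.

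Pdk4 encodes a kinase that switches off the pyruvate dehydrogenase complex and so spares glucose while fat is burned. It lies on the minus strand of chromosome 6 from 5483351 to 5496309 (ENSMUSG00000019577). Its reads numbered 418 and 380 in HFD-WT and 286 and 1267 in HFD-KO. These came to 14.4 and 13.8 CPM in HFD-WT and 10.9 and 53.1 CPM in HFD-KO, so that one HFD-KO library was below both HFD-WT libraries and the other was above all. HFD-KO replicate 2 stood 4.88-fold above HFD-KO replicate 1, while the HFD-WT libraries differed by 0.06 on the log2 scale. The mean difference of 1.17 on the log2 scale (standard error 0.59, adjusted p = 0.627 by edgeR), from 14.1 ± 0.438 CPM for HFD-WT to 32.0 ± 29.8 CPM for HFD-KO (SD of the 2 libraries), thus rested on a single library. It was -0.38 without HFD-KO replicate 2 (adjusted p = 0.229) and 1.91 without HFD-KO replicate 1 (adjusted p = 3.41e-14), each with a lone HFD-KO library that edgeR assumes to vary like the HFD-WT libraries. The 3 other pyruvate dehydrogenase kinases had log2 fold changes between -0.08 and 0.05. Pdk2, the main form in these livers, had 129.9 to 144 CPM, and Pdk1 had 71.6 to 79.2 CPM. Pdk3 had 0.461 to 0.798 CPM.

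Genes that respond to other inputs of Pdk4 were read beside it. Igfbp1, a secreted binding protein induced by FOXO1 when insulin is low, had 48.3 and 68.9 CPM in HFD-WT and 93.6 and 292.8 CPM in HFD-KO. The highest value again fell in HFD-KO replicate 2, but both HFD-KO libraries were above both HFD-WT libraries (log2 fold change 1.72, unadjusted p = 0.00669, adjusted p = 0.358 by edgeR). Irs2, an insulin receptor substrate that FOXO1 also induces, had 14.3 and 15.2 CPM in HFD-WT and 21.8 and 25.5 CPM in HFD-KO (log2 fold change 0.68, unadjusted p = 0.000282, adjusted p = 0.115 by edgeR). Pck1, the gluconeogenic carboxykinase, had 2232 CPM in HFD-KO replicate 2, the lowest value of the 4. Of the glucocorticoid-induced genes, Fkbp5 had 88.6 and 163.5 CPM in HFD-WT and 40.2 and 68.5 CPM in HFD-KO, and Zbtb16 had 28.8 and 77.1 CPM and 11.2 and 22.9 CPM. Both were lower in HFD-KO, with unadjusted p = 0.00594 and 0.00953 by edgeR (adjusted p = 0.341 and 0.376). Of the 12 names on this list 11 were in the table, and the other, G6pc1, is a second symbol of G6pc, which was in it. At an unadjusted p under 0.05, which 8.98% of all genes tested passed, 2 were higher and 2 lower. The others, among them Tsc22d3 and Sgk1, overlapped or missed the threshold. Lcn2, also glucocorticoid-induced, had 102.5 and 104.4 CPM in HFD-WT and 45.3 and 157.7 CPM in HFD-KO. Its HFD-KO replicate 1 was thus the lowest and replicate 2 the highest, as for Pdk4. G6pc, on the FOXO1 list, had 169.9 and 254.6 CPM in HFD-WT and 377.6 and 244.9 CPM in HFD-KO (log2 fold change 0.55, unadjusted p = 0.0503, adjusted p = 0.556 by edgeR). The part of these inputs in the level of Pdk4 was not tested.

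Ehhadh and Acaa1b encode enzymes of peroxisomal beta-oxidation, which shortens very long and branched acyl chains and yields hydrogen peroxide. Ehhadh is the bifunctional hydratase and dehydrogenase, and lies on chromosome 16 from 21580037 to 21606557 on the minus strand (ENSMUSG00000022853). Its level was 600.9 and 592.7 CPM in HFD-WT and 514.5 and 615.5 CPM in HFD-KO. The HFD-KO libraries enclosed the HFD-WT libraries here as well, as they did for Ppara. The log2 fold change was -0.08 (standard error 0.11, adjusted p = 0.867 by edgeR), with a 95% interval from -0.33 to 0.18, and was 0.05 without HFD-KO replicate 1.

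Acaa1b is a 3-ketoacyl-CoA thiolase, which makes the last cut of each cycle, and lies on chromosome 9 from 118977091 to 118986161 on the minus strand (ENSMUSG00000010651). Its level was 2261 and 2079 CPM in HFD-WT and 2117 and 1897 CPM in HFD-KO, so the groups overlapped. The log2 fold change was -0.11 (standard error 0.11, adjusted p = 0.810 by edgeR), with a 95% interval from -0.38 to 0.15. Its copy Acaa1a has a coding sequence 96.5% identical to that of Acaa1b, and 22.6% of the 100-base windows of Acaa1b occur unchanged in it. The stretches below, at coding bases 164 to 253 of each (exons 1 and 2, with an intron between), are shown because so few letters separate them. On GRCm38 they lie at chr9:119156603-119156831 for Acaa1b (minus strand) and chr9:119341678-119341906 for Acaa1a (plus strand). The 2 differing bases, the median over such stretches, are in capitals.
Acaa1b: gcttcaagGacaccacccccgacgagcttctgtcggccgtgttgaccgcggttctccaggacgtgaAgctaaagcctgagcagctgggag
Acaa1a: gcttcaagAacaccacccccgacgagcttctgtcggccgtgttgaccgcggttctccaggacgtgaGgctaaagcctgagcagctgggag
Acaa1a had 319 to 345.7 CPM and a log2 fold change of 0.02 (adjusted p = 0.961 by edgeR). The sum of both genes gave -0.09, close to the value of Acaa1b alone.

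Acot1 encodes a cytosolic thioesterase that releases free fatty acids from long-chain acyl-CoA. It lies on the plus strand of chromosome 12 from 84056264 to 84065145 (ENSMUSG00000072949). Its reads numbered 1741 and 1787 in HFD-WT and 2221 and 2247 in HFD-KO, or 60.1 and 65.0 CPM and 84.4 and 94.1 CPM. Both HFD-KO libraries were higher, and the gap between the groups was larger than the gap within either. The means were 62.5 ± 3.43 CPM and 89.2 ± 6.87 CPM (SD, n = 2 each), a fold of 1.43 with a 95% interval of 1.23 to 1.66. The log2 fold change was 0.51 (standard error 0.09), with an unadjusted p = 0.000701 and an adjusted p = 0.172 by edgeR. Over the alternatives the log2 fold change of Acot1 stayed between 0.35 and 0.59, and its adjusted p ran from 0.000103 to 0.972. It was under 0.05 in 4 of the 10 alternatives: 0.0240 with no filter on low counts, 0.00810 with DESeq2's Wald test, 0.000103 without HFD-KO replicate 1 and 0.00856 without HFD-KO replicate 2.

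Acot1 sits in a cluster of near copies, and of its 100-base windows 21.9% occur unchanged in Acot2, Acot3, Acot4, Acot5 or Acot6. The closest is Acot2, the mitochondrial form, with a coding sequence 95.3% identical to that of Acot1. The stretches below lie in exon 1 of each gene, at coding bases 52 to 141 of Acot1 (chr12:84009561-84009650) and 175 to 264 of Acot2 (chr12:83988076-83988165, GRCm38, plus strand). They are shown because only the 3 bases in capitals, the median number over such stretches, separate the genes there.
Acot1: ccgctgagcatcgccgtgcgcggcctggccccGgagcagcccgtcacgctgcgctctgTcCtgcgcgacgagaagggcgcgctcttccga
Acot2: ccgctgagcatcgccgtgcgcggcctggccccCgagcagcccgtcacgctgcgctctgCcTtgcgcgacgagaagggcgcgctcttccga
Acot2 had 28.0 and 32.5 CPM in HFD-WT and 27.2 and 37.2 CPM in HFD-KO, with overlapping groups (log2 fold change 0.09, adjusted p = 0.895 by edgeR). Acot3, a peroxisomal form with 83.9% identity to Acot1, had 46.5 and 32.3 CPM in HFD-WT and 62.7 and 56.1 CPM in HFD-KO. Its groups did not overlap, and the log2 fold change was 0.59 (unadjusted p = 0.00774, adjusted p = 0.363 by edgeR). Acot4, another peroxisomal form, had 110.7 and 96.6 CPM in HFD-WT and 121 and 118.5 CPM in HFD-KO, a log2 fold change of 0.21 (adjusted p = 0.566 by edgeR). Acot6 had 2.51 to 3.21 CPM with a log2 fold change of 0.04, and Acot5 was at or near the floor and not tested. The whole family summed to 248.7 and 228.9 CPM in HFD-WT and to 298.2 and 309.1 CPM in HFD-KO, without overlap. The log2 fold change of the sum was 0.35 (adjusted p = 0.308 by edgeR), so the difference was smaller for the cluster than for Acot1 alone.

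Vnn1 encodes a membrane-bound pantetheinase, which splits pantetheine into pantothenate, the precursor of coenzyme A, and cysteamine. It lies on the plus strand of chromosome 10 from 23770586 to 23781241 (ENSMUSG00000037440). Its level was 160.6 and 157.7 CPM in HFD-WT and 175.2 and 168.3 CPM in HFD-KO. The groups did not overlap, but they lay close together, at 159.2 ± 2.10 CPM and 171.7 ± 4.89 CPM (SD, n = 2 each). The log2 fold change was 0.11 (standard error 0.08, adjusted p = 0.719 by edgeR), with a 95% interval of the fold from 0.951 to 1.23. The related Vnn3 went the other way in value, with 77.7 and 83.3 CPM in HFD-WT and 74.8 and 70.5 CPM in HFD-KO (log2 fold change -0.15, adjusted p = 0.664 by edgeR).

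Angptl4 encodes a secreted protein that inhibits lipoprotein lipase and so limits the uptake of fatty acids from lipoproteins. It lies on the minus strand of chromosome 17 from 33992724 to 34000804 (ENSMUSG00000002289). Its level was 137.3 and 180.1 CPM in HFD-WT and 154 and 168 CPM in HFD-KO, so that here the HFD-WT values enclosed those of HFD-KO. The log2 fold change was 0.02 (standard error 0.13, adjusted p = 0.977 by edgeR), with a 95% interval from -0.29 to 0.33. It was -0.03 with the library size alone as scaling, -0.17 without HFD-WT replicate 1 and -0.04 without HFD-KO replicate 2.

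Angptl8, a relative that insulin and feeding induce and that acts on the same lipase, had 21.9 and 24.8 CPM in HFD-WT and 33.3 and 49.9 CPM in HFD-KO, without overlap. Its log2 fold change was 0.83 (unadjusted p = 0.00210, adjusted p = 0.233 by edgeR). Angptl6 had 10.8 to 14.8 CPM and a log2 fold change of -0.20 (adjusted p = 0.711 by edgeR). The lipase gene itself, Lpl, had 54.2 CPM in HFD-KO replicate 2 and 28.2 to 36.7 CPM in the others (log2 fold change 0.18, adjusted p = 0.876 by edgeR).

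**Figure D2:**
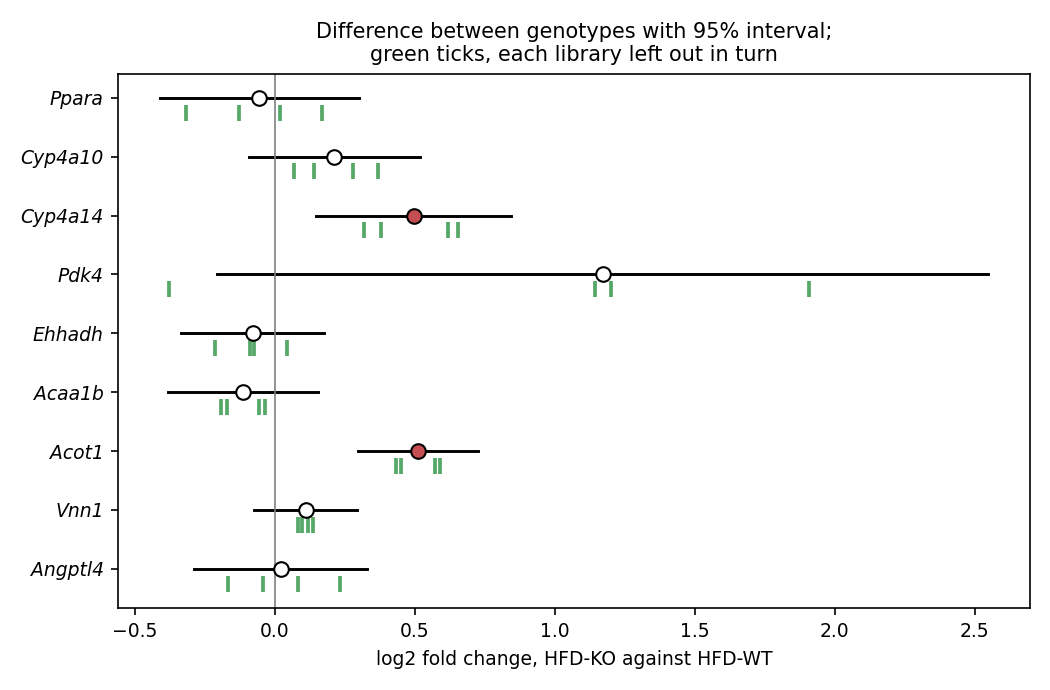
Log2 fold change between HFD-KO and HFD-WT (x axis, above 0 where HFD-KO was higher) for the 9 genes; circles are the edgeR estimates from all 4 libraries (red, unadjusted p under 0.05), lines their 95% intervals and green ticks the estimates with each library left out in turn. The intervals of Cyp4a14 and Acot1 lie above 0, and those of the other 7 genes contain 0, Pdk4 with the widest, from -0.21 to 2.55.

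The spread between replicates was a property of single genes rather than of the group of 9. The median absolute log2 difference between the HFD-KO libraries was 0.16 over the 9 genes and 0.14 over all genes tested, and between the HFD-WT libraries it was 0.12 and 0.11. Pdk4 stood apart: its log2 difference of 2.24 between HFD-KO replicate 2 and replicate 1 was matched or exceeded by 0.0771% of all genes tested, itself included. A difference of at least 2-fold in that direction was seen in 0.663% of genes, and one in either direction in 1.46% for HFD-KO and 0.316% for HFD-WT. Ppara had the next largest spread in HFD-KO, with a log2 difference of 0.48.

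**Figure D3:**
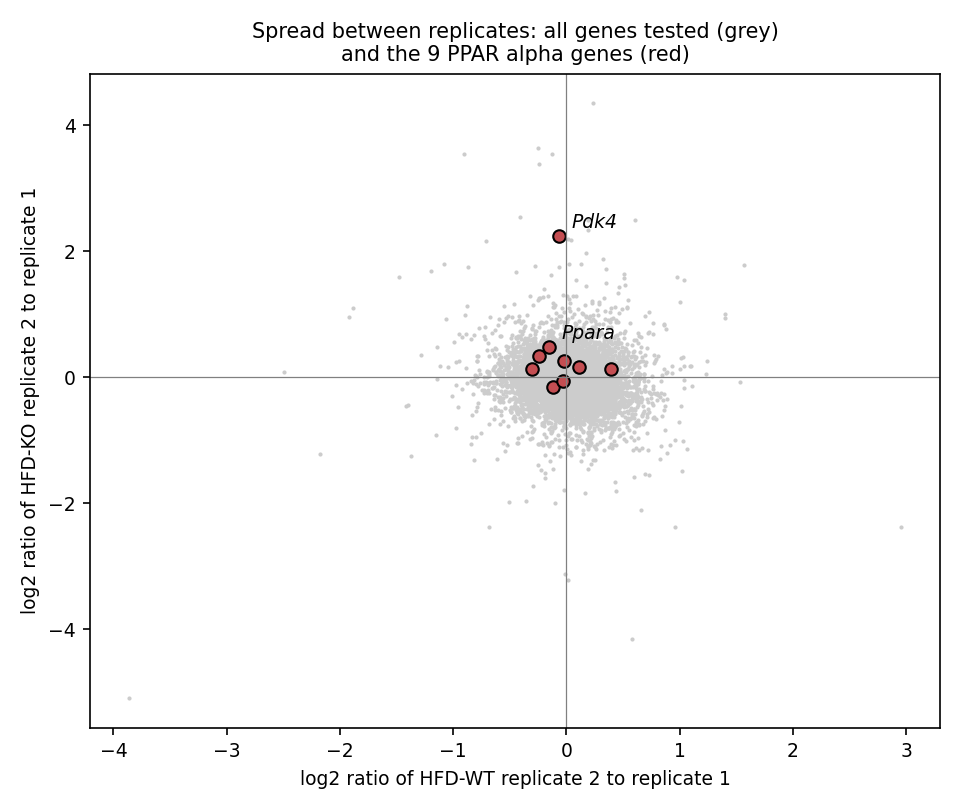
Log2 ratio of replicate 2 to replicate 1 in HFD-WT (x axis) and in HFD-KO (y axis) for all 12967 genes tested (grey) and the 9 PPARα genes (red). Pdk4 lies at 2.24 on the y axis and near 0 on the x axis, while the other 8 genes are within 0.5 of 0 on both axes.

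The genes most like these in their pattern over the 4 libraries were sought by the distance between log2 CPM values centred on each gene's mean. Of 11764 genes compared, the 4 closest to Ppara were Cps1, the mitochondrial carbamoyl phosphate synthetase of the urea cycle, Samd1, N4bp3 and Tm4sf4. Cps1 had 2190 and 1931 CPM in HFD-WT and 1642 and 2314 CPM in HFD-KO, the same order of libraries as Ppara. The 5 closest to the mean of the 8 targets were F10, which encodes coagulation factor X, Zfp770, Zbtb26, Pwwp2a and Clock. F10 had 308.9 and 307.1 CPM in HFD-WT and 319.9 and 414.5 CPM in HFD-KO, so this mean profile was led by HFD-KO replicate 2. The mean was not scaled by gene, so Pdk4, with a log2 difference of 2.24 between the HFD-KO libraries, weighed most in it. The genes closest to Pdk4, a search added after its values were seen, began with Hilpda, a lipid droplet protein that fatty acids and hypoxia induce, at 2.59, 2.98, 2.01 and 9.34 CPM, and Apcs, the serum amyloid P component, at 78.3, 85.8, 75.5 and 262.4 CPM in HFD-WT 1, HFD-WT 2, HFD-KO 1 and HFD-KO 2. With 4 libraries many genes share a pattern, and these distances are descriptions only.

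Beyond the 8 targets, 87 further genes of the pathway were read, of which 86 passed the filter on low counts. Of these, 44 were higher and 42 lower in HFD-KO, with a median log2 fold change of 0.014, beside 0.0068 for all genes tested. At an adjusted p under 0.05, 0 passed by edgeR, and 10 passed at an unadjusted p under 0.05, 4 of them higher and 6 lower, where 8.98% of all genes tested passed. In 15 both HFD-KO libraries were above both HFD-WT libraries, and in 18 they were below, against 20.5% and 20.3% of all genes tested. These counts are near the shares over all genes. The 4 higher genes were Acot3 and Cyp4a31, described above, Cyp4f14 and Abcd2. Cyp4f14, a microsomal hydroxylase of leukotrienes and fatty acids, had 88.0 and 100.4 CPM in HFD-WT and 128.1 and 108.7 CPM in HFD-KO (log2 fold change 0.33, adjusted p = 0.446 by edgeR). Abcd2, a peroxisomal transporter of very long chain acyl-CoA, had 32.4 and 32.5 CPM in HFD-WT and 39.0 and 36.3 CPM in HFD-KO (log2 fold change 0.21, adjusted p = 0.511 by edgeR).

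**Figure D4:**
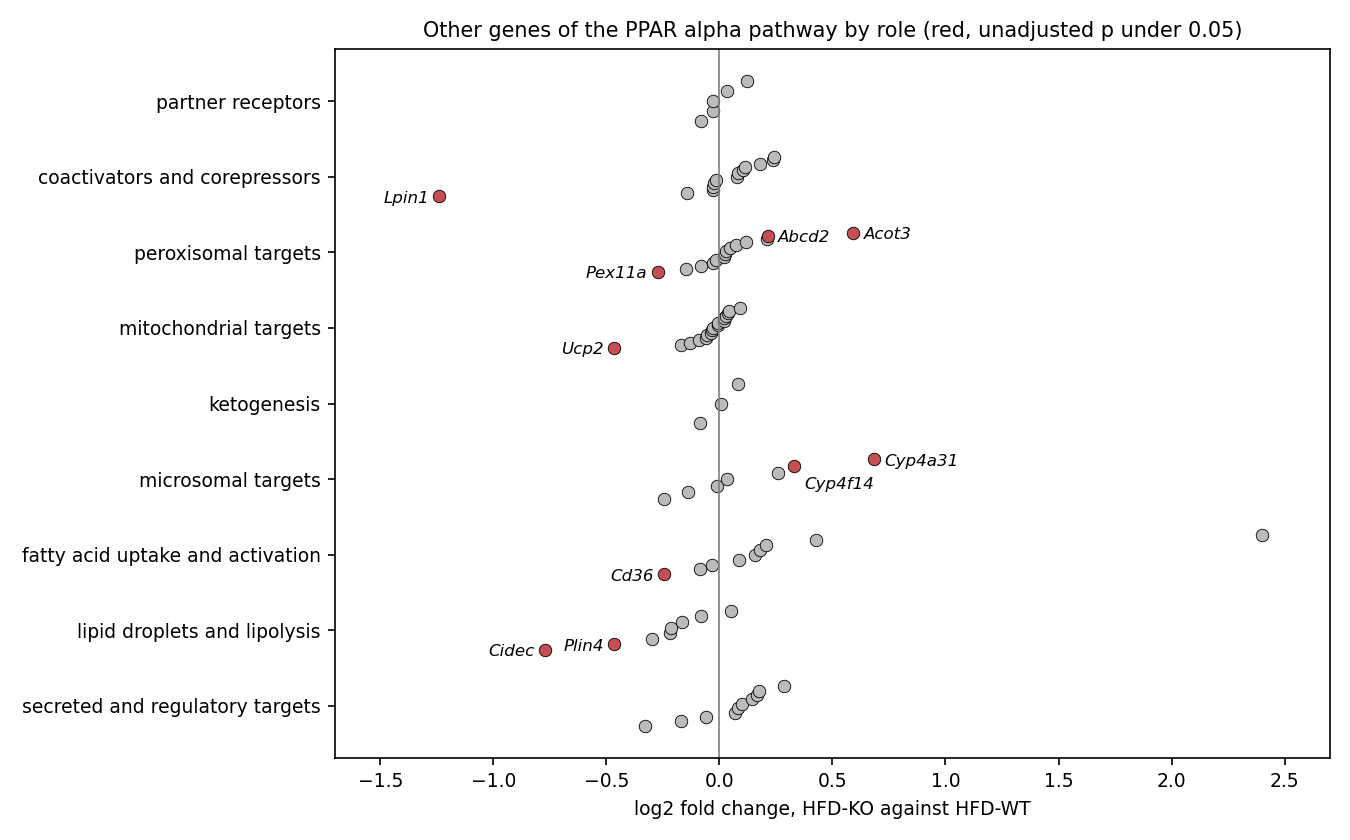
Log2 fold change between HFD-KO and HFD-WT (x axis, above 0 where HFD-KO was higher) of 86 further genes of the PPARα pathway, grouped by role (rows); each point is a gene, red and named where the unadjusted p was under 0.05. Most points lie near 0, and 7 of the 8 genes of lipid droplets and lipolysis lie below 0.

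The 6 lower genes were Lpin1, Pex11a, Ucp2, Cd36, Plin4 and Cidec. Of the 8 genes of lipid droplets and lipolysis, 7 were lower, 2 at an unadjusted p under 0.05 (4.73% of all genes tested), with a median log2 fold change of -0.22. Plin4, a coat protein of lipid droplets, had 229.2 and 229.9 CPM in HFD-WT and 164.9 and 167.8 CPM in HFD-KO (log2 fold change -0.46, unadjusted p = 0.000450, adjusted p = 0.136 by edgeR). Cidec, which fuses droplets, had 97.1 and 106 CPM in HFD-WT and 50.9 and 68.0 CPM in HFD-KO (log2 fold change -0.77, unadjusted p = 0.000661, adjusted p = 0.168 by edgeR). In both genes the groups were well apart. Of the adipocyte markers, 4 of 6 were at or near 0, Cfd had its higher values in HFD-KO and Cidea belongs to this role as well, and the part of fat cells in these levels was not tested. Plin2, the main droplet coat of hepatocytes, was the single member with a higher value, at 806.3 and 876.3 CPM in HFD-WT and 894.4 and 850.5 CPM in HFD-KO.

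Lpin1 encodes a phosphatidate phosphatase that also assists PPARα and PGC-1α in the nucleus. It had 162.2 and 334 CPM in HFD-WT and 98.5 and 111.8 CPM in HFD-KO (log2 fold change -1.24, unadjusted p = 0.00327, adjusted p = 0.268 by edgeR). The HFD-WT libraries differed from each other by more than the HFD-KO libraries did, and the highest value fell in HFD-WT replicate 2. Among the glucocorticoid-induced genes listed, Fkbp5, Zbtb16 and Tsc22d3 were also highest there. Per1 and Sgk1 were highest in HFD-KO replicate 1 and Lcn2 in HFD-KO replicate 2. The other coactivators and corepressors had absolute log2 fold changes of at most 0.24. Ppargc1a, the gene of PGC-1α, had 8.74 and 9.56 CPM in HFD-WT and 8.36 and 9.59 CPM in HFD-KO (log2 fold change -0.03, adjusted p = 0.969 by edgeR). The deacetylase gene Sirt1 had a log2 fold change of 0.24 (adjusted p = 0.634 by edgeR), as did the coactivator gene Ncoa2 (adjusted p = 0.599), and in both genes the HFD-KO libraries were above the HFD-WT libraries.

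Of 17 mitochondrial targets tested, 6 were higher and 11 lower, and 1 passed an unadjusted p under 0.05. This was Ucp2, an uncoupling protein also present in macrophages, with 43.6 and 60.1 CPM in HFD-WT and 43.2 and 31.9 CPM in HFD-KO (log2 fold change -0.47, adjusted p = 0.518 by edgeR). Cpt1a, which lets long-chain acyl groups enter mitochondria, had 669 and 682.4 CPM in HFD-WT and 622.6 and 579.7 CPM in HFD-KO. Both HFD-KO libraries were lower (log2 fold change -0.17, adjusted p = 0.644 by edgeR). The other 15 had absolute log2 fold changes below that of Cpt1a.

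Among the 14 other peroxisomal targets 9 were higher and 5 lower. Pex11a, which drives the division of peroxisomes, had 239.4 and 275.7 CPM in HFD-WT and 228.5 and 197.6 CPM in HFD-KO (log2 fold change -0.27, unadjusted p = 0.0389, adjusted p = 0.518 by edgeR). The peroxisomal thioesterase Acot3 and Pex11a thus differed in opposite directions within the same role.

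In fatty acid uptake and activation, Cd36, a fatty acid receptor of hepatocytes, macrophages and endothelium, had 306.1 and 315.5 CPM in HFD-WT and 269.4 and 255.3 CPM in HFD-KO (log2 fold change -0.24, unadjusted p = 0.0198, adjusted p = 0.451 by edgeR). The macrophage marker sums given above were lower in the same libraries, and their part in Cd36 and Ucp2 was not tested. Fabp3 and Fabp4, binding proteins for fatty acids better known from heart and fat, repeated the pattern of Pdk4. Fabp3 had 0.691 and 0.509 CPM in HFD-WT and 0.152 and 6.32 CPM in HFD-KO (log2 fold change 2.40, adjusted p = 0.617 by edgeR). Its HFD-WT values came from 20 and 14 reads and its HFD-KO values from 4 and 151 reads, the 4 near the floor of 3 reads. Fabp4 had 12.8 and 14.6 CPM in HFD-WT and 9.72 and 27.3 CPM in HFD-KO (log2 fold change 0.43, adjusted p = 0.790 by edgeR). In both, HFD-KO replicate 1 was the lowest and HFD-KO replicate 2 the highest of the 4 libraries.

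Of the secreted and regulatory targets, 7 were higher and 3 lower, and 0 of 10 passed an unadjusted p under 0.05. Txnip, an arrestin-like protein that glucose induces, had 120 and 142 CPM in HFD-WT and 90.6 and 118.2 CPM in HFD-KO (log2 fold change -0.33, unadjusted p = 0.0508, adjusted p = 0.556 by edgeR). Cyp8b1, the sterol 12-hydroxylase of bile acid synthesis, had 814.5 CPM in HFD-KO replicate 1 and 520.6 to 553.9 CPM in the others (log2 fold change 0.29, adjusted p = 0.699 by edgeR). Fgf21, a hormone that PPARα induces in fasting, had 15.9 and 22.0 CPM in HFD-WT and 13.7 and 20.01 CPM in HFD-KO, with overlapping groups.

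Of the other microsomal targets, Cyp4f15 had 127.4 to 143.8 CPM (log2 fold change -0.01) and the aldehyde dehydrogenase gene Aldh3a2 had 918.3 to 1141 CPM (log2 fold change -0.14), both with overlapping groups. Cyp4a12a and Cyp4a12b encode male-biased hydroxylases. Cyp4a12a had 60.6 and 176.2 CPM in HFD-WT and 102.3 and 97.3 CPM in HFD-KO, so that the HFD-WT libraries were the farther apart (log2 fold change -0.25, adjusted p = 0.892 by edgeR). Cyp4a12b had 9.39 and 8.80 CPM in HFD-WT and 10.4 and 11.4 CPM in HFD-KO (log2 fold change 0.26, adjusted p = 0.587 by edgeR).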

How the data were processed

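Liver RNA from 2 HFD-WT and 2 HFD-KO samples was measured by RNA-seq. Per the study's methods, the authors made libraries from RNA extracted with TRIzol with a directional kit, read them as paired ends of 100 bases and counted them on GENCODE genes in Partek Genomics Suite. The methods name mm10, the labels list both GRCm39 and mm10, and the gene positions printed here are those of the deposited table on GRCm39. Versions of these tools, and how strand and multi-mapping reads were handled in counting, are not given in the sources used here. The deposited read counts per gene are whole numbers without normalization and were the values tested. The deposited TPM values, which the authors scaled by gene length, were used only to compare levels between genes. The authors' RPKM and CPM columns were not used.

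CPM values were computed from the counts with TMM-scaled library sizes. Genes were kept by filterByExpr (12967 of 25655), and the genotypes were compared in edgeR 4.0.16 (R 4.3.3) by its two-sided quasi-likelihood test, with p-values adjusted by Benjamini-Hochberg over all genes tested. The common biological coefficient of variation came to 0.102. The 95% intervals used the standard error and 7.34 total degrees of freedom, of which 5.34 were prior. Tested on simulated data of this comparison, the procedure found 187 of 200 genes simulated at a 2-fold change (8 other genes of 12997 were called). At a 4-fold change it found 199 of 200 (5 other genes of 12971). The simulation gave every gene the same common variation and changed only genes above a minimum mean count. It therefore does not give the share found among genes that vary more between libraries, such as Pdk4. With 2 libraries against 2, the smallest exact permutation p is 0.333, so no permutation was run. Centred profiles used log2(CPM + 0.5) of genes with a mean of at least 1 CPM.

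The 9 genes and all lists were chosen with earlier results of these data known. The genes named were the 9 members, Cpt1a, Ppargc1a, the further pathway genes with an unadjusted p under 0.05 or the 2 largest absolute log2 fold changes of their role, paralogs of members, the 5 genes closest in pattern, the list of hormone and fasting inputs, and Adarb1. Rxra, Rxrb, Rxrg, Sirt1, Cyp4a12a, Cyp4a12b, Cyp4f15, Aldh3a2, Fgf21, Plin2, Lpl, the clock genes, the markers and the genes closest to Pdk4 were named after their values were seen. Some genes that the rule names are not reported here. Alternatives were DESeq2 1.42.0 (size factors, and its Wald test), library size alone, no filter on low counts, the replicate number as a block, each library left out in turn, and counts summed over paralogs. Promoters came from the RefSeq table for GRCm38.p6 and transcripts from GENCODE M21, also on GRCm38. Shared windows count identical 100-base stretches in the transcript of another gene, and coding sequences were aligned end to end. The promoters of Cyp4a10, Cyp4a14, Vnn1 and Angptl4 were not analysed here. Plots were drawn with matplotlib 3.10.9.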

Additional observations from a re-analysis of the deposited data

How the results depend on the processing

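Of 84 comparisons of a member's log2 fold change with an alternative, 70 kept their direction and their side of the threshold, 7 came past it and 7 reversed. The genes at an adjusted p under 0.05 numbered 10 in the main comparison, 6 with library size alone as scaling, 162 with no filter on low counts, 115 with DESeq2's Wald test and 0 to 705 with each library left out. Of the 9 PPARα genes, 0 passed in the main comparison, 1 (Acot1) with no filter, 2 (Acot1 and Cyp4a14) with DESeq2's Wald test, and 0 to 3 with a library left out: Acot1, Cyp4a14 and Pdk4 without HFD-KO replicate 1, and Acot1 without HFD-KO replicate 2. At an unadjusted p under 0.05, 1 to 5 of them passed with a library left out, and 7 to 22 of the further pathway genes. The median log2 fold change of the 9 genes ranged from -0.036 (without HFD-KO replicate 2) to 0.17. Library size alone moved the median of all genes by -0.046, and Angptl4 to -0.027. With a library left out, Ppara ranged from -0.32 to 0.17, Angptl4 from -0.17 to 0.23, Ehhadh from -0.21 to 0.045 and Pdk4 from -0.38 to 1.91. In these fits 1 library stands alone in its group and is assumed to vary like the other group. The cause of these shifts was not tested.

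The labels give both groups the replicate numbers 1 and 2, but nothing ties same-numbered libraries, whose deviations from the group means correlated at -0.083. With the replicate block, 20 genes had an adjusted p under 0.05. Of the 9 genes, 0 had an adjusted and 2 an unadjusted p under 0.05 with the block, and their median log2 fold change was 0.11. A further 9 pathway genes had an unadjusted p under 0.05. The share of all genes at the unadjusted threshold was not taken with the block, so these counts describe the lists only.

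Each of the 9 genes had at least 286 reads in every library. The interval of Ppara allows a fold from 0.752 to 1.23.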

Other observations

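Clock genes, several of which share targets or timing with PPARα, were read as a list. Of 15 names, 14 were in the table and tested, and the other, Bmal1, is a second symbol of Arntl, which was among them. Of those tested, 5 had an unadjusted p under 0.05, beside 8.98% of all genes tested, while 0 had an adjusted p under 0.05 by edgeR. Nr1d1, the gene of the repressor REV-ERBα, had 82.8 and 73.4 CPM in HFD-WT and 116.5 and 100.2 CPM in HFD-KO (log2 fold change 0.47, adjusted p = 0.257 by edgeR). Nr1d2 and Bhlhe41 had higher values in HFD-KO as well, with log2 fold changes of 0.20 and 0.64. Cry1 and Ciart had lower ones, with log2 fold changes of -0.45 and -0.44. Clock itself, which was among the 5 genes closest to the mean of the 8 targets, had 22.4 and 22.1 CPM in HFD-WT and 23.8 and 30.7 CPM in HFD-KO (adjusted p = 0.556 by edgeR). The time of day at which livers were taken is not given in the sources used here, and its part in the levels of the PPARα genes was not tested.

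HFD-KO replicate 2 held the highest value of the 4 libraries for Ppara, Cyp4a10, Cyp4a14, Pdk4, Ehhadh and Acot1 among the 9 genes, and the lowest value for Acaa1b. It also held the highest values of Igfbp1, Angptl8, Fabp3, Fabp4 and the red blood cell sum. How many of all genes tested were highest in this library was not counted, so this describes the library and not a trait of the 9 genes. The genes closest to Pdk4 after Hilpda and Apcs were Tff3, Obp2a and Mab21l3, with 4.23, 13.2 and 4.73 CPM in that library and at most 2.73 CPM in any other. The genotype labels do not separate this library from HFD-KO replicate 1, which held the lowest value of Ppara, Pdk4, Ehhadh, Fabp3 and Fabp4.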
